A study of Mus musculus with 6 samples.

Results

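The steroid metabolism enzymes of mouse liver are described here through 10 genes: Hsd3b2, Hsd3b3, Hsd3b5 and Hsd3b7, Hsd11b1, Hsd17b2, Hsd17b13, Srd5a1, Akr1c6 and Akr1d1. They were taken by gene symbol from the 37991 Ensembl gene IDs of the count files, and all 10 matched an ID. All 10 also passed the low-count filter that left 12631 genes for testing. The genes were chosen by what their enzymes do, but with Het over WT fold changes of these same livers already known, that of Hsd3b5 among them. The Het and WT values below are therefore a description of the 10 genes and carry no independent support for a change.

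RNA sequencing counts came from 6 livers of FVB mice aged 84 days. In 3 livers (Het) the genotype was Ing5 MommeD48/+, a heterozygous MommeD48 allele of Ing5, and in the other 3 (WT) it was Ing5 +/+. Ing5 encodes a PHD-finger subunit of histone acetyltransferase complexes, and MommeD alleles come from a mouse mutagenesis screen for modifiers of transgene silencing. The series set out to ask what heterozygosity for the Ing5 mutation does to liver transcripts. The labels name no treatment and do not describe the molecular lesion of the allele. The livers are only numbered, with no statement of 1 mouse per liver, so a p-value reflects how far these samples scatter and that scatter may be technical.

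Steroid dehydrogenases and reductases of the liver add or remove hydrogen at fixed positions of the steroid ring, and so switch hormones between active and inactive forms and prepare them for excretion. The same ring chemistry turns cholesterol into bile acids. In mice several of these enzymes are made at different levels in males and females, a difference set largely by the rhythm of pituitary growth hormone and relayed in hepatocytes by STAT5.

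Hsd3b2, Hsd3b3 and Hsd3b5 lie in one cluster on mouse chromosome 3, while Hsd3b7 is on chromosome 7, Hsd11b1 on 1, Hsd17b2 on 8, Hsd17b13 on 5, Akr1d1 on 6, and Srd5a1 and Akr1c6 both on 13. The 250 bases before the transcription start of the 3 clustered genes are printed because these genes are treated below as 1 family that shares transcript sequence. They are RefSeq sequences of build GRCm38.p6, which is not the mm9 build of the counts, given 5′ to 3′ on the minus strand. The windows are chr3:98724544-98724793 for Hsd3b2, chr3:98763129-98763378 for the first of 2 starts listed for Hsd3b3, and chr3:98645535-98645784 for Hsd3b5. Capitals mark runs of at least 12 bases that a window shares exactly with another.

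Hsd3b2: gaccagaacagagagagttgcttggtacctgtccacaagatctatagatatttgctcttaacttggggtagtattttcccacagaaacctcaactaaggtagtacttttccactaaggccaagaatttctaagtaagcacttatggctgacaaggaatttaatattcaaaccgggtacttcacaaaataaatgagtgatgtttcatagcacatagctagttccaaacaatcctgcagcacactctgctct
Hsd3b3: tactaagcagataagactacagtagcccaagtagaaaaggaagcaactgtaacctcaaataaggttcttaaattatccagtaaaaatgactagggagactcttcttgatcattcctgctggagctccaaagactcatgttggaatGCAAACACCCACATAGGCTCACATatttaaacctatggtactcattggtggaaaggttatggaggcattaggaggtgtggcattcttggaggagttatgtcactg
Hsd3b5: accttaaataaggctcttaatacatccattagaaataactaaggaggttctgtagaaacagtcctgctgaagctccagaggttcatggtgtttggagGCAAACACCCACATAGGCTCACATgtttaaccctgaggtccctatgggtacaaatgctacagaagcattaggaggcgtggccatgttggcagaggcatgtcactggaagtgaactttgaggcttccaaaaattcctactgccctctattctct

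The windows of Hsd3b3 and Hsd3b5 shared a run of 24 bases, and a local alignment of them had 154 identical bases among 197 aligned (78.2%). Hsd3b2 shared no exact run longer than 8 bases with either window. Its local alignments were 74.9% identical with Hsd3b5 over 187 aligned bases and 75.9% identical with Hsd3b3 over 87. These percentages leave out gaps, which took 68 bases with Hsd3b5 and 23 with Hsd3b3, against 7 between Hsd3b3 and Hsd3b5. Unrelated windows were not aligned, so the percentages have no background to be read against. The STAT-type motif TTCNNNGAA, searched on both strands, was in 1 of the 9 member promoters in the table, that of Hsd3b7, with its first base 21 bases before the start (position -21). Of all 27025 promoters of the same length, 1940 (7.18%) held the motif. A match is only a description of the letters, and a window without one says nothing about binding elsewhere.

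Total counts per library were 19840541 to 22041117, and the 10 genes together took 0.344% to 0.428% of them. Levels are given as CPM, counts scaled by library size and TMM factor. A gene at 0, for which 3 counts were allowed, could have had up to 0.136 to 0.151 CPM by counting error alone. Ing5 itself had 9.33 ± 0.607 CPM in Het and 9.65 ± 0.807 CPM in WT livers (SD, n = 3 each), so its RNA level does not tell the genotypes apart. Hepatocyte markers summed to 78370 to 97610 CPM in Het and 76450 to 91680 CPM in WT livers. Of tissues that make steroids, adrenal cortex markers summed to 56.6 to 63.5 CPM in Het and 46.9 to 76.2 CPM in WT livers. Cyp11b1, Cyp11b2 and Mc2r were at 0 in every library. Of the 9 adrenal markers 5 had at most 3 counts in every library, so the sum came almost wholly from the rest. Leydig cell markers summed to 1.72 to 3.03 CPM in Het and 2.42 to 2.60 CPM in WT livers, with Lhcgr at 0. All 7 kidney markers had at most 3 counts in every library. In bulk liver, fewer cells of a type and less RNA per cell cannot be told apart.

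The 3β-hydroxysteroid dehydrogenase genes held the highest Het over WT ratios of the 10. These enzymes convert 3β-hydroxysteroids into 3-ketosteroids, and some of the mouse liver forms work mainly in the reducing direction. Hsd3b2 (ENSMUSG00000063730) had 418.1, 488.7 and 452.2 CPM in Het livers 1 to 3, against 354.1, 317.9 and 308.9 CPM in WT livers 1 to 3. Every Het liver was above every WT liver. Its means were 453 ± 35.3 CPM in Het and 327 ± 23.95 CPM in WT livers, a log2 fold change (Het over WT) of 0.47 (SE 0.11, 95% interval 0.23 to 0.71).

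Hsd3b5 (ENSMUSG00000038092), a 3-ketosteroid reductase made mainly by male mouse liver, had 317.6, 323.3 and 335.7 CPM in Het livers, against 257.6, 216.6 and 229.5 CPM in WT livers. The Het livers lay close together and all above the WT livers, of which liver 1 was the highest. Het over WT came to 1.39-fold (interval 1.19 to 1.62), or 0.47 on the log2 scale (SE 0.10).

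Hsd3b3 (ENSMUSG00000062410), the least abundant of the clustered genes, had 73.95, 70.83 and 65.7 CPM in Het livers, against 64.2, 41.63 and 70.19 CPM in WT livers. Here the genotypes overlapped, since WT liver 3 stood above Het liver 3. WT liver 2 stood alone at the bottom. Het over WT was 0.26 on the log2 scale (SE 0.18, interval -0.15 to 0.67), and without WT liver 2 it was 0.06.

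Hsd3b7 (ENSMUSG00000042289) acts on hydroxylated sterols and is required for bile acid synthesis, not for hormone synthesis. It had 416.4, 428 and 440.5 CPM in Het livers, against 350.2, 376.1 and 352.1 CPM in WT livers. All Het livers were above all WT livers. Het exceeded WT by 0.25 on the log2 scale (SE 0.10, interval 0.04 to 0.47). Its spread within a genotype was among the smallest of all genes tested, lower than in all but 3.85% of them.

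Hsd11b1 (ENSMUSG00000016194), the reductase that regenerates active glucocorticoid in liver, had 896.8, 831.3 and 717.9 CPM in Het livers, against 823, 778.3 and 820.2 CPM in WT livers. The highest and the lowest values were both in Het livers, and the WT livers lay between them. On the log2 scale Het over WT was 0.01 (SE 0.12), and its interval of -0.25 to 0.28 corresponds to folds of 0.842 to 1.21.

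Hsd17b2 (ENSMUSG00000031844), which oxidises estradiol to estrone and testosterone to androstenedione, had 107.9, 112.8 and 122.7 CPM in Het livers, against 108.1, 91.57 and 125.3 CPM in WT livers. Both extremes were WT livers. With a log2 fold change of 0.08, the genotypes differed by less than the SE of 0.12 (interval -0.18 to 0.34).

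Hsd17b13 (ENSMUSG00000034528), a lipid droplet protein of hepatocytes, had 199, 123.4 and 116.7 CPM in Het livers, against 148.8, 170.8 and 141 CPM in WT livers. Het liver 1 was above every other liver and the other two Het livers were below all WT livers. The log2 fold change of -0.07 (SE 0.20, interval -0.55 to 0.41) became -0.35 without Het liver 1.

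Srd5a1 (ENSMUSG00000021594), a steroid 5α-reductase, had 95.04, 137.5 and 121.2 CPM in Het livers, against 136.4, 92.34 and 115.9 CPM in WT livers. The genotypes covered nearly the same range. Their log2 fold change was 0.04 (SE 0.17, interval -0.35 to 0.43).

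Akr1d1 (ENSMUSG00000038641), the 5β-reductase of bile acid synthesis and steroid clearance, had 166.3, 106.9 and 135.1 CPM in Het livers, against 150.3, 90.98 and 201.9 CPM in WT livers. It was the most variable of the 10, with the highest liver 2.22 times the lowest, both of them WT. Its interval for the log2 fold change of -0.12 (SE 0.32) ran from -0.91 to 0.67, wide enough to leave large changes either way undetectable.

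Akr1c6 (ENSMUSG00000021210), a mouse aldo-keto reductase that makes testosterone from androstenedione, had 1450, 1507 and 1675 CPM in Het livers, against 1506, 1266 and 1627 CPM in WT livers. The genotypes overlapped, with WT liver 2 the lowest. Het over WT was 0.07 on the log2 scale (SE 0.13, interval -0.22 to 0.36).

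**Figure D1:**
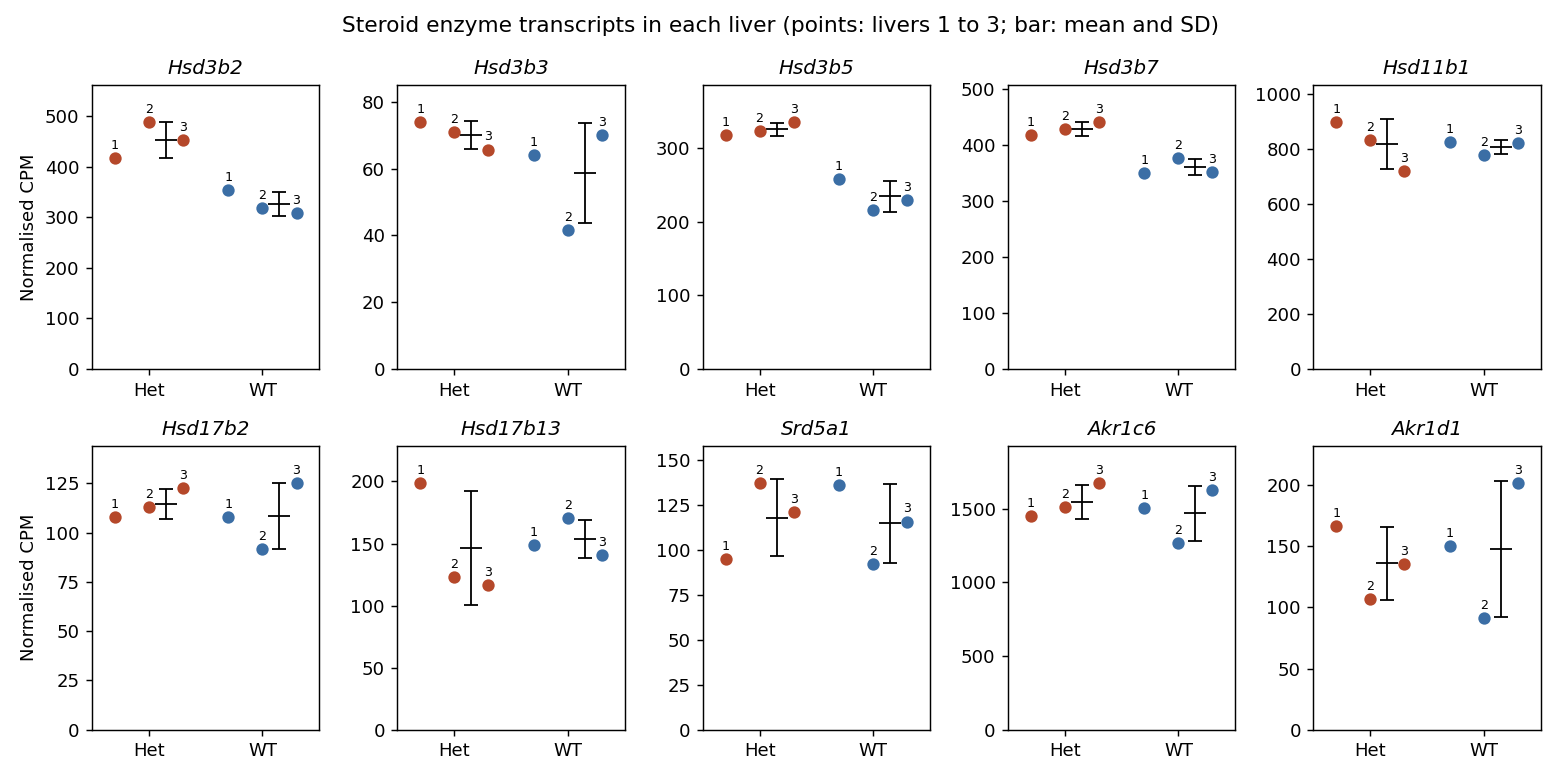
Normalised CPM of each of the 10 genes (vertical axes from 0, a scale for each gene) in Het livers, left, and WT livers, right. Points are livers 1 to 3 and the bars beside them mean and SD. Het and WT points do not overlap for Hsd3b2, Hsd3b5 and Hsd3b7, and Hsd17b13 has 1 high Het liver at 199 CPM.

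Per kilobase of the longest coding transcript in GENCODE M21, Akr1c6 had the highest level of the 10, with 1106 ± 83.9 CPM per kb in Het and 1050 ± 132 CPM per kb in WT livers. Hsd11b1 came next, at 502 ± 55.8 CPM per kb in Het and 497 ± 15.4 in WT livers, and Hsd3b7 after it, at 234 ± 6.59 in Het and 197 ± 7.89 in WT livers. These steps exceeded the SDs in both genotypes. Hsd3b5 followed Hsd3b7 at 210 ± 5.98 CPM per kb in Het and 151 ± 13.6 in WT livers, and Hsd3b2 had 123 ± 9.55 in Het and 88.5 ± 6.48 in WT livers. The place of Hsd3b2 depends on its transcript, since on the shortest coding one it reached 404 CPM per kb in Het and 291 in WT livers, above Hsd3b7 and Hsd3b5. Hsd17b2 had 86.7 ± 5.71 CPM per kb in Het and 82.1 ± 12.8 in WT livers. Hsd17b13 had 85.7 ± 26.8 in Het and 89.9 ± 9.06 in WT livers. On the longest transcripts these genes did not differ beyond their spread. The place of Hsd17b13 also depends on its transcript. On a coding one of 1118 bases it reached 131 CPM per kb in Het and 137 in WT livers, above Hsd17b2. At the bottom of the order, Akr1d1 had 50.4 ± 11 CPM per kb in Het and 54.7 ± 20.6 in WT livers. Hsd3b3 had 45.8 ± 2.72 CPM per kb in Het and 38.3 ± 9.82 in WT livers, and Srd5a1 had 44.6 ± 8.10 in Het and 43.5 ± 8.34 in WT livers, so these 3 lay within one another's spread.

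Het means were above WT means for 8 of the 10 genes, where 50.3% of all 12631 genes had a log2 fold change above 0. In 3 of the 10 every Het liver was above every WT liver, a pattern found in 4.72% of all genes, and none showed the opposite pattern, found in 4.28% (8.99% for either). The median log2 fold change of the 10 was 0.08, against 0.00088 over all genes, and their median size of change was 0.10, against 0.09. With edgeR's quasi-likelihood test and Benjamini-Hochberg adjustment over all genes, 0 of the 10 passed at 0.05, as did 0% of all genes. Their edgeR adjusted p-values were 0.764 to 0.9998. At an unadjusted edgeR p under 0.05 there were 3 of the 10 (Hsd3b2, Hsd3b5 and Hsd3b7), all higher in Het livers, against 4.33% of all genes in either direction and 2.12% higher in Het. DESeq2 called 2 of the 10, Hsd3b5 (DESeq2 adjusted p = 0.00831) and Hsd3b2 (DESeq2 adjusted p = 0.0163), and 0.113% of all genes it tested. limma-voom called 0 of the 10 and 0% of all genes. Because fold changes of these livers were known when the genes were chosen, nothing is read from the counts.

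**Figure D2:**
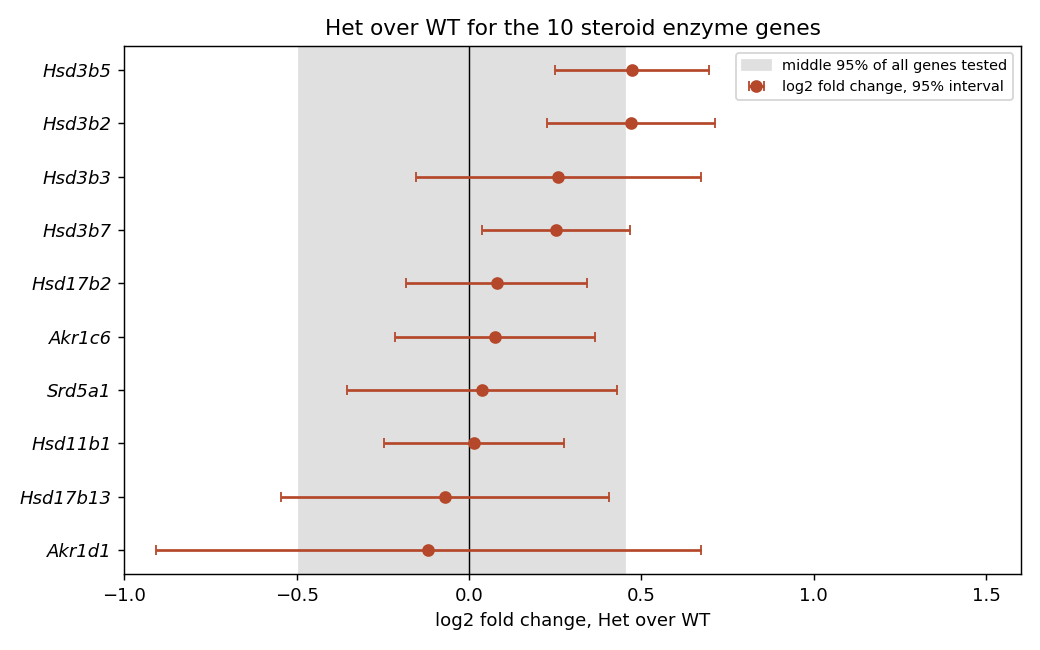
Log2 fold change, Het over WT (horizontal axis), with its 95% interval from edgeR for each of the 10 genes, ordered from highest to lowest. The grey band holds the middle 95% of all genes tested, from -0.49 to 0.45, and the points of Hsd3b5 and Hsd3b2, both at 0.47, lie just past its upper edge.

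Each liver was also left out in turn, as shown in the plot of folds with 1 liver removed. Genes with all Het livers above all WT livers could hardly change sign, whereas folds near 0 easily could. The signs therefore restate the values above and add no support for a difference between genes. Hsd3b2 stayed between 0.41 and 0.53, Hsd3b5 between 0.42 and 0.54, and Hsd3b7 between 0.23 and 0.29 on the log2 scale. Hsd3b3 remained above 0 but ranged from 0.06 to 0.41. All 6 genes outside the Hsd3b family changed sign when at least 1 liver was left out. Hsd17b2 and Akr1c6 changed sign without WT liver 2 alone. Srd5a1 did so without Het liver 2 or WT liver 2, Akr1d1 without Het liver 2 or WT liver 3, and Hsd11b1 without Het liver 1 or WT liver 2. Hsd17b13 did so without Het liver 2, Het liver 3 or WT liver 2.

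**Figure D3:**
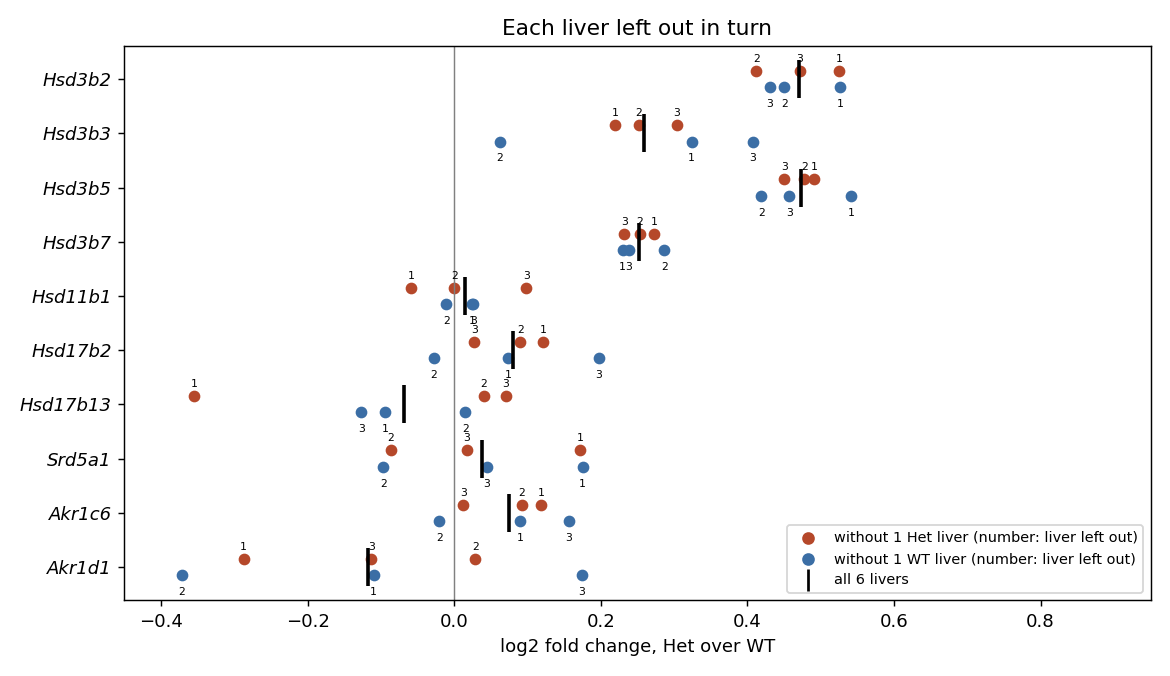
Log2 fold change, Het over WT (horizontal axis), of each gene after 1 liver was removed. Red points lack a Het liver, blue points a WT liver, the small number is the liver removed and the black bar is the value from all 6 livers. The points of the 4 Hsd3b genes stay to the right of 0 and those of the other 6 genes fall on both sides.

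WT liver 2 was the lowest of the 6 livers for 6 of the 10 genes (Hsd3b3, Hsd3b5, Hsd17b2, Srd5a1, Akr1c6 and Akr1d1) and the highest for none. The 10 genes summed to 4141, 4130 and 4183 CPM in Het livers, against 3898, 3442 and 3992 CPM in WT livers. WT liver 2 also had the highest acute-phase transcripts, a list of 12 genes of the hepatic inflammation response. They summed to 13310, 8748 and 8099 CPM in Het livers, against 15660, 28500 and 7776 CPM in WT livers. The part of that state in the enzyme values was not tested. Without WT liver 2, the log2 fold changes of the 6 genes lowest in it were 0.06 for Hsd3b3, 0.42 for Hsd3b5, -0.028 for Hsd17b2, -0.097 for Srd5a1, -0.020 for Akr1c6 and -0.37 for Akr1d1. Since these genes were picked for being lowest in that liver, its removal had to lower each value.

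Of the clustered Hsd3b transcripts, Hsd3b2 made up 51.6%, 55.4% and 53.0% in Het livers, against 52.4%, 55.2% and 50.8% in WT livers, as shares of the Hsd3b2, Hsd3b3 and Hsd3b5 counts. Hsd3b5 made up 39.2%, 36.6% and 39.3% in Het livers, against 38.1%, 37.6% and 37.7% in WT livers. Both shares overlapped between genotypes. Hsd3b3 made up 8.28 ± 0.753% in Het and 9.42 ± 2.15% in WT livers (SD, n = 3 each). Hsd3b1, the form of steroidogenic tissues, and Hsd3b6 had at most 1 count in any library. The counts of Hsd3b1, Hsd3b2, Hsd3b3, Hsd3b5 and Hsd3b6 summed to 809.7, 882.8 and 853.6 CPM in Het livers, against 676, 576.1 and 608.6 CPM in WT livers. All Het sums were above all WT sums, and the log2 fold change of the sum was 0.45 (SE 0.11, interval 0.21 to 0.70). The GENCODE M21 ID of Hsd3b4 was not among the IDs counted, so this gene is not in the sum.

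**Figure D4:**
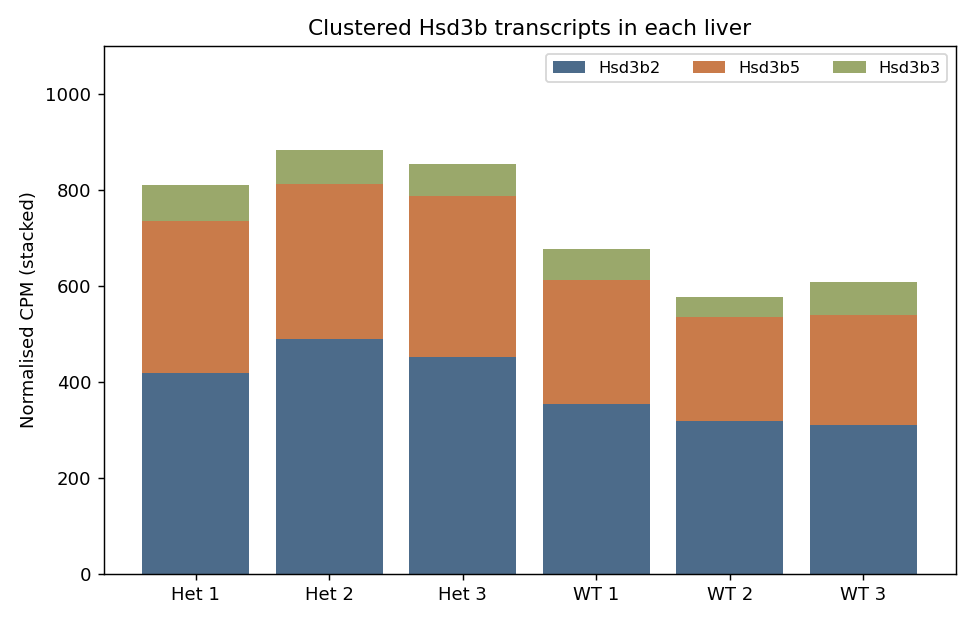
Stacked normalised CPM (vertical axis, from 0) of Hsd3b2, Hsd3b5 and Hsd3b3 in Het livers 1 to 3, left, and WT livers 1 to 3, right. The Het columns reach 809.7 to 882.8 CPM and the WT columns 576.1 to 676 CPM with similar proportions of the 3 genes.

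The clustered genes share sequence, which limits how well short reads can be assigned to one of them. Of the 50-base stretches in the longest coding transcript, 27.3% in Hsd3b2, 34% in Hsd3b3 and 21.2% in Hsd3b5 also occur in transcripts of other genes, and of the 100-base stretches 8.51%, 17.2% and 7.79%. Hsd3b3 shares mainly with Hsd3b2 (27.2% of its 50-base stretches). Hsd3b2 shares most with Hsd3b3, Hsd3b6 and Gm13722, but at most 11.1% with any one gene. Hsd3b5 shares with Gm10681, Hsd3b4 and Gm4450, at most 18.2% with any one. Gm4450 had 0 counts in every library, and the GENCODE M21 IDs of Gm10681 and Hsd3b4 were not among the IDs counted. For Hsd3b7, 97.5% of the 50-base stretches occur in the annotated transcripts of Gm49388 or 9430064I24Rik. The M21 IDs of both were also not among the IDs counted. How the authors' annotation treated that locus bears on the counts of Hsd3b7. Srd5a1 shares 16.5% with Gm17108, which had 1 to 6 counts. Akr1c6 shares 2.08%, Hsd17b13 0.663%, and Hsd11b1, Hsd17b2 and Akr1d1 share 0%.

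Genes working beside these enzymes, and sex-biased liver genes, were counted in 11 lists, which held 109 genes, 101 of them in the files and 77 tested. edgeR called 0 of the 77 after adjustment over all genes and 11 at an unadjusted p under 0.05, where all genes had 0% and 4.33%. The male-biased list held 3 of these 11 and the female-biased list 4. All lists were written with earlier results of these data known, so nothing is read from this count. DESeq2 called 2, Cyp7b1 and Ugt2b38, and 0.113% of all genes. The log2 fold change was positive for 37 and negative for 40, with a median of -0.01.

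Of the partners in glucocorticoid activation and 5α-reduction, 2 of 3 tested had higher Het means. H6pd, which supplies NADPH to Hsd11b1 in the endoplasmic reticulum, had 458 ± 21.6 CPM in Het and 512 ± 111 CPM in WT livers (log2 fold change -0.16, SE 0.16). Srd5a3, an enzyme of dolichol synthesis related to Srd5a1, had 9.10 ± 0.793 CPM in Het and 8.39 ± 0.759 CPM in WT livers. The count ratio of Hsd11b1 to H6pd was 1.90, 1.77 and 1.66 in Het livers, against 1.51, 1.29 and 2.11 in WT livers, and it overlapped. Hsd11b2, the opposing dehydrogenase of kidney, had at most 1 count. Among receptors and plasma carriers, 3 of 5 tested had higher Het means. The glucocorticoid receptor gene Nr3c1 had 121 ± 10.7 CPM in Het and 116 ± 12.2 CPM in WT livers, and Serpina6, which encodes corticosteroid-binding globulin, had 421 ± 53.2 CPM in Het and 450 ± 92.5 CPM in WT livers. Of 9 tested glucocorticoid receptor target genes, 3 had higher Het means, with a median log2 fold change of -0.15. The gluconeogenic aminotransferase gene Tat had 500.2, 617.8 and 1068 CPM in Het livers, against 837.1, 521.6 and 1067 CPM in WT livers, and Errfi1, an inhibitor of epidermal growth factor signalling, had 801 ± 144 CPM in Het and 927 ± 188 CPM in WT livers.

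Of 6 other tested 17β-hydroxysteroid dehydrogenase genes, 2 had higher Het means. Hsd17b4, a peroxisomal enzyme of fatty acid oxidation, had 468 ± 42.6 CPM in Het and 486 ± 5.08 CPM in WT livers. Hsd17b6, which acts on androgens, had 290 ± 46.3 CPM in Het and 240 ± 87.1 CPM in WT livers. Of 5 other tested Akr1c genes, 2 had higher Het means. Akr1c14, a 3α-hydroxysteroid dehydrogenase, had 787 ± 127 CPM in Het and 678 ± 62.6 CPM in WT livers. Its close relative Akr1c20 had 109.6 ± 14.2 CPM in Het and 105 ± 14.7 CPM in WT livers. The genotypes overlapped for all 4.

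In the conjugation list, which covers sulphation and glucuronidation of steroids, 6 of 10 tested genes had higher Het means, with a median log2 fold change of 0.11. Ugt2b5 had 1146 ± 100.5 CPM in Het and 1065 ± 8.40 CPM in WT livers, and Ugt2b36 had 1053 ± 43.7 CPM in Het and 1073 ± 38.3 CPM in WT livers. Both are glucuronosyltransferase genes and neither separated the genotypes. Ugt2b38 had 19.95, 38.34 and 29.24 CPM in Het livers, against 10.84, 9.761 and 14.24 CPM in WT livers. The values did not overlap, and its log2 fold change was 1.33 (SE 0.26; edgeR adjusted p = 0.974, DESeq2 adjusted p = 1.11e-05).

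Among genes that make bile acids and hydroxylate oxysterols, 7 of 10 tested had higher Het means and the median log2 fold change was 0.05. Scp2, a sterol carrier and thiolase gene, had 4867 ± 184 CPM in Het and 4687 ± 403 CPM in WT livers. Cyp7b1, the oxysterol 7α-hydroxylase whose products are substrates of Hsd3b7, had 452, 437.2 and 557.7 CPM in Het livers, against 333, 320.7 and 326.1 CPM in WT livers. The WT livers lay close together below every Het liver. Its log2 fold change was 0.56 (SE 0.12; edgeR adjusted p = 0.749, DESeq2 adjusted p = 0.00515). Cyp7b1 and Ugt2b38 were named because DESeq2 called them, after their values were seen. Of 8 lipid droplet genes tested, 2 had a positive log2 fold change. The droplet coat gene Plin2 had 333 ± 66.8 CPM in Het and 390 ± 10.5 CPM in WT livers, and Cideb, a factor of lipoprotein lipidation, had 231 ± 23.3 CPM in Het and 237 ± 11.1 CPM in WT livers.

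Among male-biased liver genes outside the 10 enzymes, 13 of 15 tested had higher Het means, with a median log2 fold change of 0.16. Among female-biased genes, 9 of 10 tested had lower Het means, with a median of -0.77. Cyp7b1 and Ugt2b38 belong to the male-biased list as well, and the direction of both lists was known from earlier results. List scores, the mean log2 CPM of a list centred on the 6 livers, were -0.08, 0.20 and 0.40 in Het livers, against -0.05, -0.18 and -0.30 in WT livers, for the male-biased genes. Het liver 1 fell among the WT livers on this score, whereas its Hsd3b5 level was above all of them. Female-biased scores were 0.29, -0.49 and -0.70 in Het livers, against 0.05, 0.22 and 0.62 in WT livers. On this score too Het liver 1 fell among the WT livers. Cyp4a14, highest in Het liver 1, is part of the score, which was not computed without it. In 4 of the 10 tested female-biased genes every Het liver, liver 1 included, was below every WT liver. That pattern was found in 4.28% of all genes. The most abundant male-biased genes were Serpina3k, a serine protease inhibitor gene, with 9735 ± 480 CPM in Het and 9007 ± 1609 CPM in WT livers, and the organic anion transporter gene Slco1a1, with 1616 ± 116 CPM in Het and 1445 ± 85.6 CPM in WT livers. The most abundant female-biased genes were cytochrome P450 genes. Cyp2b9 had 97.81, 20.8 and 20.94 CPM in Het livers, against 86.21, 102 and 99.61 CPM in WT livers, so Het liver 1 again stood with the WT livers. Cyp4a14 had 629.8, 38.34 and 54.18 CPM in Het livers, against 3.66, 64.33 and 14.19 CPM in WT livers.

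**Figure D5:**
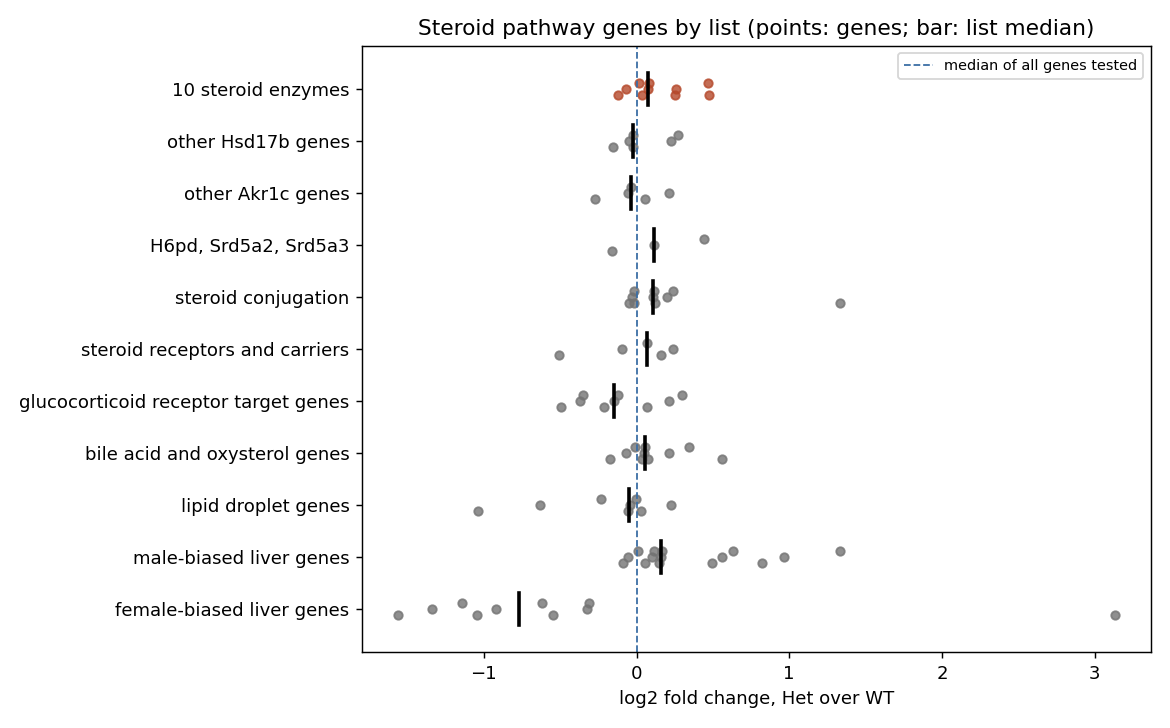
Log2 fold change, Het over WT (horizontal axis), of the 10 steroid enzymes (top row, red) and of the tested genes of each pathway list (grey), with the median of each row as a black bar and the median of all genes as a dashed line. The female-biased genes have the lowest median, -0.77, with Cyp4a14 far to the right at 3.13.

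The 5 genes outside the enzymes whose pattern over the 6 livers was nearest to that of Hsd3b5 were Rsph3a, Ccdc171, Rundc3a, Sytl2 and Mipol1. Nearness was the root mean square difference in centred log2 CPM, which was 0.05 for Rsph3a and 0.08 for Mipol1. Rsph3a had 3.252, 3.498 and 3.563 CPM in Het livers, against 2.745, 2.452 and 2.52 CPM in WT livers. The remaining 4 had means of 0.602 to 7.04 CPM in Het and 0.387 to 5.45 CPM in WT livers, far fewer reads than Hsd3b5.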

How the data were processed

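Poly(A) RNA of 6 livers was made into Illumina TruSeq libraries, per the labels' protocols. The submitters' processing notes name TopHat2 2.0.11, HTSeq 0.6.1, DESeq and mm9. The tools' roles, the counting strand and the annotation version are not given in the sources used here. As the values show, the authors deposited raw gene-level counts, whole numbers without any scaling. Symbols were matched by Ensembl ID for 32919 of 37991 IDs.

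The main analysis used edgeR 4.0.16 under R 4.3.3 (filterByExpr by genotype, TMM, robust quasi-likelihood fit, Benjamini-Hochberg over 12631 genes at 0.05), and, as alternatives, DESeq2 1.42.0 and voom from limma 3.58.1, and the steps were checked on simulated counts. Libraries were compared pairwise by chi-square per degree of freedom, which was 10.2 to 79.9, so none was a copy of another. The lowest value was that of Het livers 2 and 3, and the next was 24.9, of Het liver 3 and WT liver 3. Sequence sharing was counted over GENCODE M21 transcripts on either strand, and promoters were RefSeq GRCm38.p6.

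The 10 genes and all lists were chosen with earlier results of these data known. The genes named were the 10, Ing5, the 2 most abundant tested genes of each list, and the 5 genes nearest to Hsd3b5. Genes that passed only under an alternative, that share sequence with the 10, that were near 0, or that set Het liver 1 apart were added after their values were seen. Alternatives were other size factors and filters, library totals that leave out the top 20 genes, non-robust estimation, edgeR's newer quasi-likelihood fit, a threshold of 0.1, a replicate block, DESeq2, limma-voom, and each liver left out.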

Additional observations from a re-analysis of the deposited data

How the results depend on the processing

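The number of genes called over all genes was 0 with edgeR, 1 without a low-count filter, 14 with DESeq2 and 0 to 17 with a liver left out, the highest without WT liver 3, while leaving out Het liver 1 gave 10. Of the 10 enzymes DESeq2 called 2 (Hsd3b2 and Hsd3b5), and 0 to 0 were called with a liver left out. Of the pathway genes DESeq2 called 2 (Cyp7b1 and Ugt2b38) and the fits with a liver left out 0 to 2, with 2 without Het liver 1 (Cyp2b9 and Ugt2b38) and 1 without WT liver 3 (Esr1, the estrogen receptor gene). Over all alternatives the adjusted p of Hsd3b5 was 0.00831 to 1 and that of Hsd3b2 0.0163 to 1. Of 176 fold changes of the enzymes and the Hsd3b sum under 16 alternatives, 162 kept direction and side of the threshold, 3 passed it, all with DESeq2, and 11 changed sign, all with a liver left out. With 1 liver left out, Hsd11b1 ranged from -0.059 (without Het liver 1) to 0.098 and was -0.011 without WT liver 2. Hsd17b13 ranged from -0.35 (without Het liver 1) to 0.070 (without Het liver 3), with 0.040 without Het liver 2 and 0.015 without WT liver 2. Srd5a1 ranged from -0.097 (without WT liver 2) to 0.175, with -0.087 without Het liver 2. Akr1d1 ranged from -0.37 (without WT liver 2) to 0.17 (without WT liver 3), with 0.029 without Het liver 2. Hsd17b2 ranged from -0.028 (without WT liver 2) to 0.20 and Akr1c6 from -0.020 (without WT liver 2) to 0.16. Fewer samples entered these fits, and other causes were not tested. The replicate numbers showed no clear pairing: deviations of same-numbered livers correlated at -0.02, -0.08 and 0.22 over 12631 genes. Differently numbered livers ranged from -0.22 (Het liver 3 with WT liver 2) to 0.25 (Het liver 1 with WT liver 2). So few livers cannot exclude a pairing. With the number as a block 0 genes, 0 enzymes and 0 pathway genes were called. With 3 livers a genotype, a typical SE of 0.12 (log2) limits what could be seen.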

Other observations

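Het liver 1 differed from the other Het livers in several genes of steroid and lipid metabolism, which are named here after their values were seen. Hsd17b13 stood at 199 CPM in Het liver 1, against 123.4 and 116.7 CPM in Het livers 2 and 3. Akr1c14 had 933.6, 702 and 726 CPM in Het livers, against 744.2, 619.6 and 671.4 CPM in WT livers. The cholesterol synthesis gene Hsd17b7 had 85.33, 48.23 and 52.76 CPM in Het livers, against 56.54, 72 and 60.99 CPM in WT livers. Cidec, a lipid droplet fusion factor, had 4.257, 0.9665 and 1.269 CPM in Het livers, against 1.638, 3.178 and 1.646 CPM in WT livers. In all 4 genes Het liver 1 was the highest of the 6. Of the 10 enzymes, Hsd3b3, Hsd11b1 and Hsd17b13 were highest in Het liver 1. Its Hsd3b2, Hsd3b5, Hsd3b7, Hsd17b2, Srd5a1 and Akr1c6 levels were instead the lowest of the 3 Het livers.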
